A study of Homo sapiens with 8 samples.

Results

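DNA coverage was summed over genes in 3000 bins, 1000 upstream of genes, 1000 over their exons and 1000 downstream, in each of 8 libraries of RPE1 cells. All 3000 bins of the deposited profile were used, out of 15000 profile positions and bins in the series; the other 12000 lie around gene starts (6000) and gene ends (6000). Each profile was divided by the mean of its first 500 upstream and last 500 downstream bins, so that a relative level of 1 is the coverage of the outer flanks of the same library. The outer flanks are at 1 by construction, and only the exons, the boundaries and the inner flanks carry results.

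RPE1 is an hTERT-immortalised human cell line of retinal pigment epithelial origin. The series asks how loss of NuMA, which the labels also call TDIF, changes oxidative damage across the genome. The groups were OGAP-seq of NuMA-depleted cells (KD OGAP), OGAP-seq of wild-type cells (WT OGAP), input DNA of NuMA-depleted cells (KD input) and input DNA of wild-type cells (WT input), with 2 libraries each. Per the labels, KD cells were taken after doxycycline and WT cells had none, and the drug and the depletion cannot be told apart; the labels do not say how doxycycline lowers NuMA or whether the line is a clone. Nothing in the labels ties the 2 libraries of a group to separate cultures, and p-values therefore reflect only how far these libraries spread, possibly for technical reasons. The profiles hold DNA, so neither the depletion nor the cell type can be checked from them.

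Reactive oxygen species oxidise guanine more readily than the other bases, and 8-oxoguanine is the most studied product. Base excision repair removes it through the glycosylase OGG1, which leaves an abasic site that is cut and refilled. OGAP-seq enriches fragments with such damage before sequencing, while input DNA shows how evenly the genome itself was fragmented, amplified and mapped. NuMA is a large coiled-coil protein that gathers microtubules at spindle poles in mitosis and is spread through the nucleus in interphase. Exons are the parts of a gene kept in its mature RNA. Their first bins lie at the gene start, beside the promoter, and their last bins at the gene end, where the transcript is cleaved and polyadenylated.

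The flank bins could be placed by the coverage around gene starts and gene ends, deposited in a separate table. When the 1000 upstream bins were laid over the 2500 positions before the gene start, the sums differed by 0.046% to 0.058% on average, against 0.355% to 0.622% for 2600 positions and 0.372% to 0.622% for 2400. The 1000 downstream bins matched the 2500 positions after the gene end to 0.047% to 0.059%. A flank bin therefore spans 2.5 positions, and the exon bins run from gene start to gene end. Neither the labels nor the tables say whether a position is 1 base or which genes were summed.

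To show what DNA lies at the start boundary, the base composition of 35116 RefSeq promoters (GRCh38.p14) was read. The share of G and C increased toward the start, with 54.2% in the bases 250 to 201 before it, 57.3% at 150 to 101, 59.9% in the last 50 before it and 59.2% in the first 50 from it. G alone took 30.3% of the last 50 bases before the start and 31.3% of the first 50 from it. The promoter of NUMA1, the targeted gene, is shown as a sequence of that kind, with the 250 bases before its RefSeq start at chr11:72080543-72080792 on the minus strand. CG pairs are in capitals.

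NUMA1 promoter: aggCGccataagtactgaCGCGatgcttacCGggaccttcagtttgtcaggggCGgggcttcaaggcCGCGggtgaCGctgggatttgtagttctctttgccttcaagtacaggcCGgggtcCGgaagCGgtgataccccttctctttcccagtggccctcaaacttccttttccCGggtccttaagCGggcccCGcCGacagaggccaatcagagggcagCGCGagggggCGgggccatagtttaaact

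This stretch holds 18 CG pairs and 60.4% G and C, where the median promoter of the table has 11 CG pairs and 58.0%, and 93.9% of promoters hold at least 1 CG pair. Any link between base composition and the coverage profiles was not tested.

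The coverage sums behind the profiles differed in depth. The outer flanks held 32994 and 30099 per bin in KD OGAP, 25999 and 29606 in WT OGAP, 33633 and 33289 in KD input, and 35202 and 32528 in WT input. From one exon bin to the next the relative level scattered by an SD of 0.00211 to 0.00275 in the OGAP libraries and 0.00173 to 0.00194 in the inputs, far below the differences between libraries. Noise that neighbouring bins share is not part of this scatter. The KD OGAP libraries stood apart from each other, with a mean absolute difference of 0.0725 over the exon bins, as did the WT inputs at 0.0591, against 0.0113 between the WT OGAP libraries and 0.0182 between the KD inputs. KD OGAP replicate 1 was the OGAP library nearest to the inputs, and WT input replicate 2 was the highest input.

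Mean exon coverage was below the outer flanks in all 4 OGAP libraries and above them in all 4 inputs. In KD OGAP replicate 1 the mean was close to the outer level, and the middle of the exons was above it, at 1.007. The mean over the 1000 exon bins was 0.994 and 0.921 in KD OGAP and 0.848 and 0.841 in WT OGAP, against 1.10 and 1.08 in KD input and 1.11 and 1.16 in WT input. The OGAP libraries did not overlap the inputs, and KD OGAP did not overlap WT OGAP. The OGAP minus input difference was -0.212 (exact permutation p = 0.0286, two-sided, 4 against 4 libraries, the smallest this design allows; adjusted p = 0.0286 over 4 measures). With assay labels permuted only within KD and within WT, the exact p was 0.0556, the smallest that scheme allows, for this and for each of the other 3 measures below, so that none of those 4 calls holds there. Within a state the difference was -0.133 in KD and -0.291 in WT. With 2 against 2 libraries an exact test cannot go below p = 0.33.

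**Figure D1:**
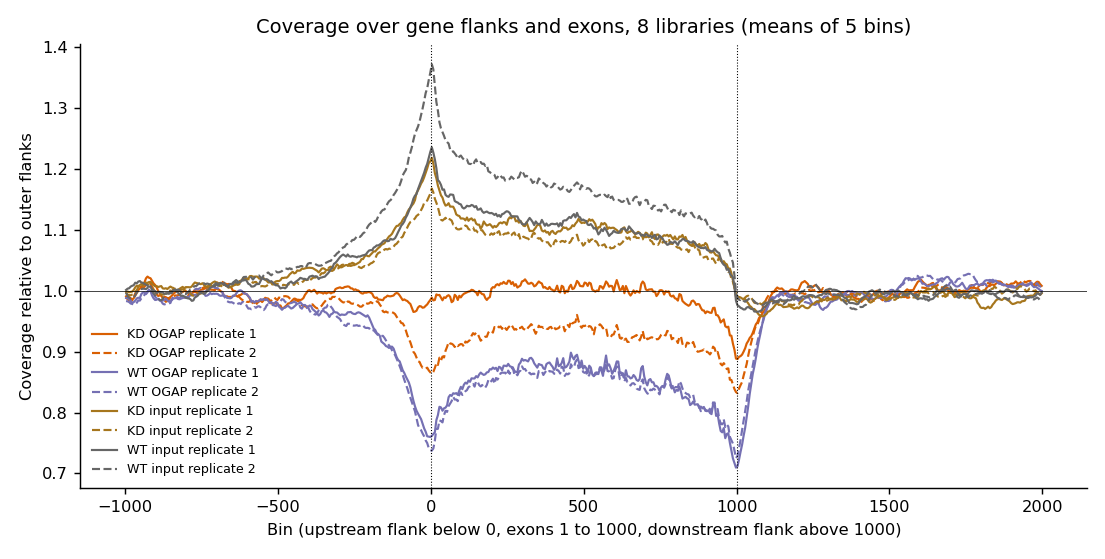
Coverage relative to the outer flanks (y axis) in means of 5 bins along the upstream flank, the exons and the downstream flank (x axis, bins), 1 line per library; solid lines are replicate 1 and dashed lines replicate 2. The WT OGAP lines are lowest over the exons, with means of 0.848 and 0.841, and the 4 input lines lie above 1 there except in the last bins.

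The separation of the assays covered every exon bin and ended soon after the gene end. The 4 OGAP libraries lay below the 4 inputs in 1000 of 1000 exon bins, 717 of 1000 upstream bins and 76 of 1000 downstream bins, where the share over all 3000 bins was 59.8%. Upstream the separation was unbroken for the 652 bins next to the exons. Downstream it held for the 76 bins next to the exons and nowhere beyond them. In 403 of 1000 downstream bins, 93 of them among the inner 500, all OGAP libraries lay above all inputs, against 0 upstream and 0 exon bins. The 1000 outer flank bins, which set the scale, are part of these counts and of the 59.8%. Among them OGAP lay above input in 310 and below it in 217. The outer downstream bins were higher than the outer upstream bins in OGAP (ratios of 1.010 to 1.027) and lower in input (0.980 to 0.991), and the part of this in the count of 403 was not tested. Neighbouring bins sum the same genes and are not replicates.

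From first to last exon bins, coverage formed a dome in the OGAP libraries and a decline in the inputs. In WT OGAP replicate 1 successive blocks of 100 exon bins were at 0.810, 0.858, 0.874, 0.881, 0.882, 0.870, 0.864, 0.847, 0.819 and 0.772, and replicate 2 differed from them by at most 0.0150. In KD OGAP replicate 2 the blocks were at 0.897 in the first, 0.943 in the fifth and 0.879 in the last. In KD OGAP replicate 1 they stayed between 0.979 and 1.011 until the ninth and ended at 0.945. The inputs were highest in the first block and lowest in the last, at 1.153 and 1.046 in KD input replicate 1 and 1.263 and 1.079 in WT input replicate 2.

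The dome can be read from 3 segments of 100 bins. The first exon bins were at 0.989 and 0.897 in KD OGAP, 0.810 and 0.796 in WT OGAP, 1.15 and 1.12 in KD input, and 1.17 and 1.26 in WT input. The middle bins were at 1.007 and 0.943 in KD OGAP, 0.877 and 0.870 in WT OGAP, 1.11 and 1.08 in KD input, and 1.11 and 1.17 in WT input. The last bins were at 0.945 and 0.879 in KD OGAP, 0.772 and 0.783 in WT OGAP, 1.046 and 1.039 in KD input, and 1.045 and 1.079 in WT input. In every OGAP library the middle bins exceeded both ends, while in every input the first bins exceeded the middle and the middle the last.

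The middle exceeded the mean of the 2 ends by 0.0399 and 0.0554 in KD OGAP and by 0.0857 and 0.0799 in WT OGAP, so that the dome was flatter in both KD libraries than in either WT library. In the inputs this height was 0.0112 and 0.0010 in KD and 0.0057 and -0.0045 in WT. The middle thus lay near the mean of the 2 ends, but the decline was not straight. In all 4 inputs coverage fell more steeply at both ends of the exons than between them. In KD input replicate 1 it fell from 1.153 in the first block to 1.112 in the second. It was still at 1.080 in the ninth block and ended at 1.046. The running mean over 21 bins peaked at exon bins 306 and 475 in KD OGAP and 466 and 470 in WT OGAP, but at bin 11, the first it can reach, in all 4 inputs. These shape measures were chosen after the profiles were seen and were not tested.

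**Figure D2:**
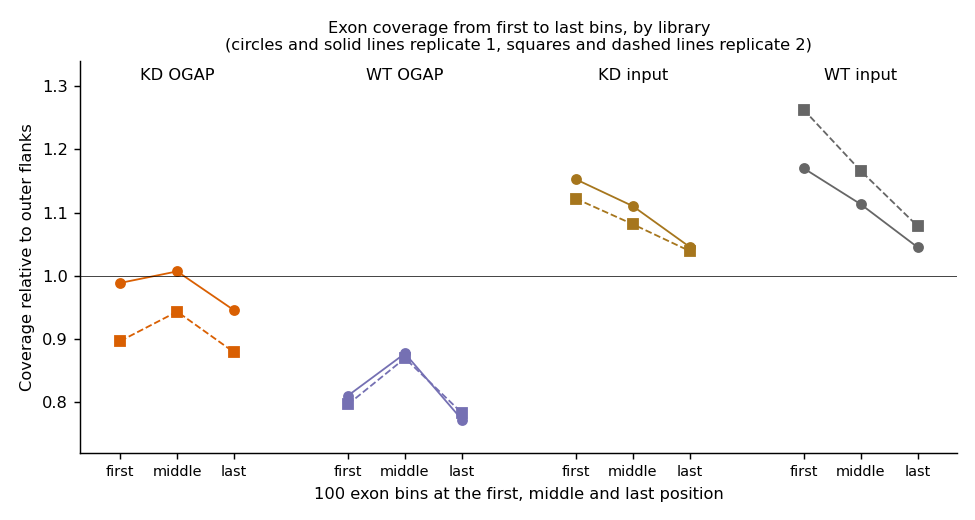
Coverage relative to the outer flanks (y axis) in the first, middle and last 100 exon bins (x axis) for each library of the 4 groups; circles and solid lines are replicate 1, squares and dashed lines replicate 2. The OGAP libraries are highest in the middle, and the inputs decline from the first to the last bins, with a last minus first difference of -0.184 in WT input replicate 2.

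Measured end to end, the gradient was shallow in OGAP and steep in input. The last minus the first 100 exon bins was -0.0433 and -0.0178 in KD OGAP and -0.0381 and -0.0137 in WT OGAP, against -0.107 and -0.0829 in KD input and -0.125 and -0.184 in WT input. Each OGAP library fell less than each input, with a difference of 0.0966 (exact permutation p = 0.0286, two-sided, 4 against 4 libraries; adjusted p = 0.0286). This measure compares the 2 end segments only. Between the first and last 100 exon bins the slopes of the assays overlapped and were not tested. Per 10 bins they were -0.000242 and -0.000253 in KD OGAP and -0.000554 and -0.000339 in WT OGAP. In input they were -0.000415 and -0.00035 in KD and -0.000771 and -0.00113 in WT. Between the states the OGAP gradients overlapped, at -0.0305 ± 0.0180 in KD and -0.0259 ± 0.0172 in WT (SD, n = 2 libraries each), and their difference of -0.0047 did not exceed the spread (exact permutation p = 0.67). That difference changed sign to 0.0072 when a least squares slope over all exon bins was used. The input gradients did not overlap, at -0.0950 ± 0.0170 in KD and -0.155 ± 0.042 in WT, a difference of 0.0595 (exact permutation p = 0.33, the smallest possible). Without WT input replicate 2 it was 0.0299.

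Relative to the mean of the inputs of its state, OGAP was lower in the first exon bins than in the middle or last exon bins. Upstream bins were not part of this comparison. In windows of 50 bins the log2 difference of OGAP over input was -0.33 in the last upstream window in KD (limma). It was -0.31 in the first exon window in KD, and -0.69 and -0.67 in the same windows in WT. The ratio in the first exon bins was 0.870 and 0.789 in the KD OGAP libraries and 0.667 and 0.656 in WT. In the middle bins it was 0.919 and 0.861 in KD and 0.769 and 0.763 in WT, and in the last bins 0.907 and 0.843 in KD and 0.727 and 0.737 in WT. The order of first, last and middle bins was shared by all 4 libraries, and both KD libraries lay above both WT libraries in each segment.

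At the start boundary coverage ran through without a break. The last upstream bin and the first exon bin were at 0.986 and 0.987 in KD OGAP replicate 1, 0.868 and 0.866 in KD OGAP replicate 2, 0.760 and 0.761 in WT OGAP replicate 1, and 0.738 and 0.735 in WT OGAP replicate 2. In input they were at 1.214 and 1.216 in KD replicate 1 and at 1.362 and 1.368 in WT replicate 2. The jump between these 2 bins was 0.0068 in WT input replicate 2 and smaller in the other libraries. The boundary is thus the floor of a valley in WT OGAP and KD OGAP replicate 2, and the summit of a peak in the inputs. KD OGAP replicate 1 had almost no valley there, with its 50 bins before the boundary at 0.975.

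Slopes were taken on each side of the boundary; an exon bin and a flank bin need not span the same length, so sizes per bin are given side by side and not compared across it. Per 10 bins, WT OGAP changed by -0.0107 and -0.0111 over the last 50 upstream bins and by 0.0117 and 0.0143 over the first 50 exon bins. KD OGAP changed by 0.0029 and -0.0047 before the boundary and by 0.0002 and 0.0076 after it. The inputs rose toward the boundary by 0.0120 and 0.0083 in KD and 0.0148 and 0.0215 in WT, and changed by -0.0175 and -0.0123 per 10 bins after it in KD and by -0.0177 and -0.0293 in WT. The signs were opposite between WT OGAP and input on both sides.

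The step over the start boundary, the first 50 exon bins minus the last 50 upstream bins, was small in every library. It was 0.0135 and 0.0060 in KD OGAP and 0.0123 and 0.0108 in WT OGAP, against -0.0118 and -0.0038 in KD input and -0.0012 and -0.0088 in WT input. OGAP exceeded input by 0.0171 (exact permutation p = 0.0286, two-sided, 4 against 4 libraries; adjusted p = 0.0286). With 20 bins on each side the difference was 0.0024 (exact permutation p = 0.49), and with 100 bins -0.001 (p = 0.74), so that the call holds for segments of 50 bins and not for those widths.

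**Figure D3:**
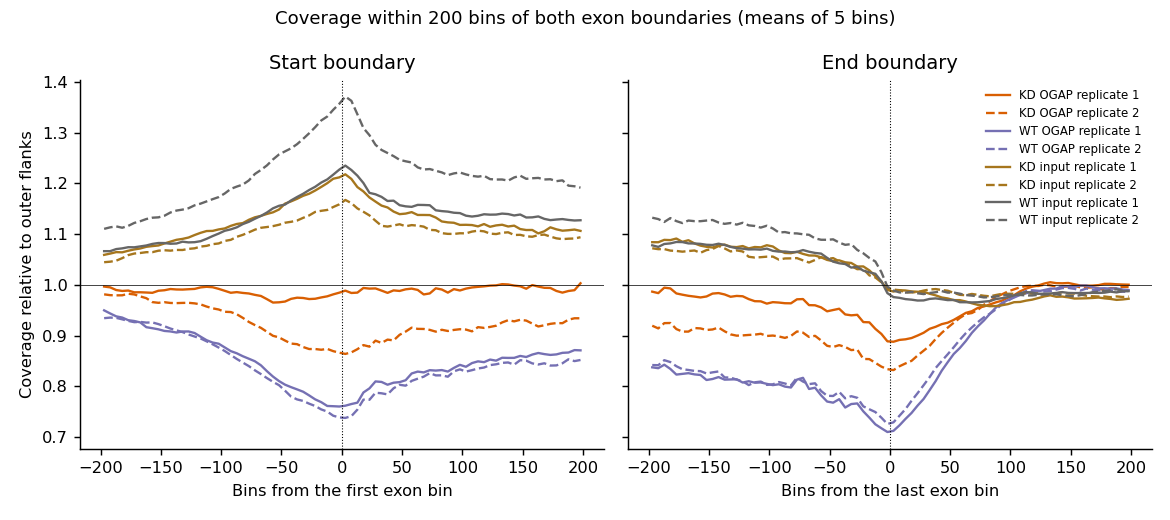
Coverage relative to the outer flanks (y axis) within 200 bins of the first exon bin (left) and of the last exon bin (right), in means of 5 bins; lines as in the profile of all bins. At the start the WT OGAP lines are at 0.761 and 0.737 in the first 5 exon bins, where the inputs peak, and at the end they reach 0.710 and 0.725 in the last 5 exon bins and climb back within 100 downstream bins.

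At the end boundary the OGAP profiles reached their lowest levels. The last exon bin and the first downstream bin were at 0.886 and 0.887 in KD OGAP replicate 1, at 0.830 in both bins of KD OGAP replicate 2, at 0.706 and 0.709 in WT OGAP replicate 1, and at 0.723 and 0.726 in WT OGAP replicate 2. In input the last exon bin was at 0.984 and 0.990 in KD and 0.978 and 0.988 in WT. The lowest running mean of the exon bins was at bin 990, the last it can reach, in all 8 libraries. The end therefore was a valley in OGAP, and in input the foot of a slope that led down to the level of the flank.

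The WT OGAP profiles climbed out of the valley at the end on the downstream side. Over the first 50 downstream bins coverage climbed by 0.0090 and 0.0188 per 10 bins in KD OGAP and by 0.0302 and 0.0306 in WT OGAP. On the exon side the change toward the boundary was -0.0134 and -0.0111 per 10 bins in KD OGAP and -0.0143 and -0.0131 in WT OGAP, beside -0.0119 and -0.0124 in KD input and -0.0115 and -0.0182 in WT input. Downstream the inputs were flat, between -0.0034 and 0.0004 per 10 bins.

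Coverage came back to within 5% of the outer level 70 and 71 bins after the exons in KD OGAP and 87 bins after them in both WT OGAP libraries. At the start it did so 11 and 102 bins before the exons in KD OGAP and 199 and 295 bins before them in WT OGAP, where 11 bins is the shortest distance that the running mean can show. The peaks of the inputs reached 229 and 188 bins upstream in KD and 307 and 330 bins in WT. The downstream flank thus recovered over a shorter distance than the upstream flank in 3 of 4 OGAP libraries, the exception being KD OGAP replicate 1.

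The step over the end boundary, the last 50 exon bins minus the first 50 downstream bins, had opposite signs in WT OGAP and input. It was 0.0232 and -0.0085 in KD OGAP and -0.0264 and -0.0321 in WT OGAP, against 0.0463 and 0.0386 in KD input and 0.0546 and 0.0732 in WT input. The OGAP minus input difference was -0.0641 (exact permutation p = 0.0286, two-sided, 4 against 4 libraries; adjusted p = 0.0286). KD OGAP did not overlap WT OGAP, with a difference of 0.0366, and the inputs did not overlap either, with a difference of -0.0215 (exact permutation p = 0.33 each, the smallest possible). The OGAP difference was 0.0207 without KD OGAP replicate 1, and the input difference was -0.0121 without WT input replicate 2. The jump from the last exon bin to the first downstream bin was 0.0034 in WT OGAP replicate 1 and smaller in size elsewhere. The step grew with the width taken. OGAP minus input was -0.0299 with 20 bins on each side and -0.1176 with 100 (exact permutation p = 0.0286 each). Here too an exon bin and a flank bin need not span the same length.

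NuMA-depleted OGAP coverage lay closer to the outer flanks than WT OGAP coverage across the exons and both boundaries. Both KD OGAP libraries were above both WT OGAP libraries in 1000 of 1000 exon bins, in the 394 upstream bins and in the 142 downstream bins next to the exons, against 67.9% of all 3000 bins. In 292 of 1000 downstream bins, 33 of them among the inner 500, both KD libraries were below both WT libraries, against 0 upstream and 0 exon bins. The 1000 outer flank bins, which set the scale, are part of these counts, with 309 above and 259 below. The exon level was 0.958 ± 0.051 in KD OGAP and 0.844 ± 0.005 in WT OGAP (SD, n = 2 libraries each), a difference of 0.113 (exact permutation p = 0.33, the smallest possible). Leaving out KD OGAP replicate 1 gave 0.0772, and leaving out KD OGAP replicate 2 gave 0.150.

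Windows of 50 bins were then fitted together, so that each window drew on the spread of the others. Within a window, 1 spread was shared by all 4 groups, inputs included. The groups differed in spread, with an exon level SD of 0.051 in KD OGAP and 0.005 in WT OGAP. The SEs and calls below rest on that shared spread. Over the 1000 exon bins and the inner 500 bins of each flank, 28 of 40 windows were higher in KD OGAP than in WT OGAP, 70% of those tested, and none was lower (limma, adjusted p under 0.05). These were 20 of 20 exon windows, 6 of 10 upstream windows and the 2 downstream windows next to the exons. The log2 difference was 0.26 ± 0.06 (SE) in the last upstream window (adjusted p = 0.0202, limma), 0.26 ± 0.06 in the first exon window, 0.15 ± 0.04 in exon bins 451 to 500, 0.24 ± 0.04 in the last exon window (adjusted p = 0.0144, limma) and 0.18 ± 0.02 in the first downstream window. The estimates were larger at both boundaries than in the middle of the exons; that contrast between windows was not tested. Leaving out KD OGAP replicate 1 reduced the count to 7, and leaving out either WT OGAP replicate to 0.

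Input levels were lower in KD than in WT over much of the exons, and no window passed. Both KD inputs lay below both WT inputs in 639 of 1000 exon bins, against 42.9% of all 3000 bins, in an unbroken run over the first 264 exon bins. The count over all 3000 bins was 1287, which became 850 when profiles were divided by all flank bins and 2053 without WT input replicate 1. The exon level was 1.09 ± 0.01 in KD input and 1.14 ± 0.04 in WT input (SD, n = 2 libraries each), a difference of -0.0443 (exact permutation p = 0.33) that was -0.0147 without WT input replicate 2 and -0.0738 without WT input replicate 1. None of the 40 windows passed, or 0%, and none had an unadjusted p under 0.05 (limma, smallest adjusted p = 0.451). The log2 difference was -0.11 ± 0.06 in the first exon window and -0.02 ± 0.04 in the last.

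**Figure D4:**
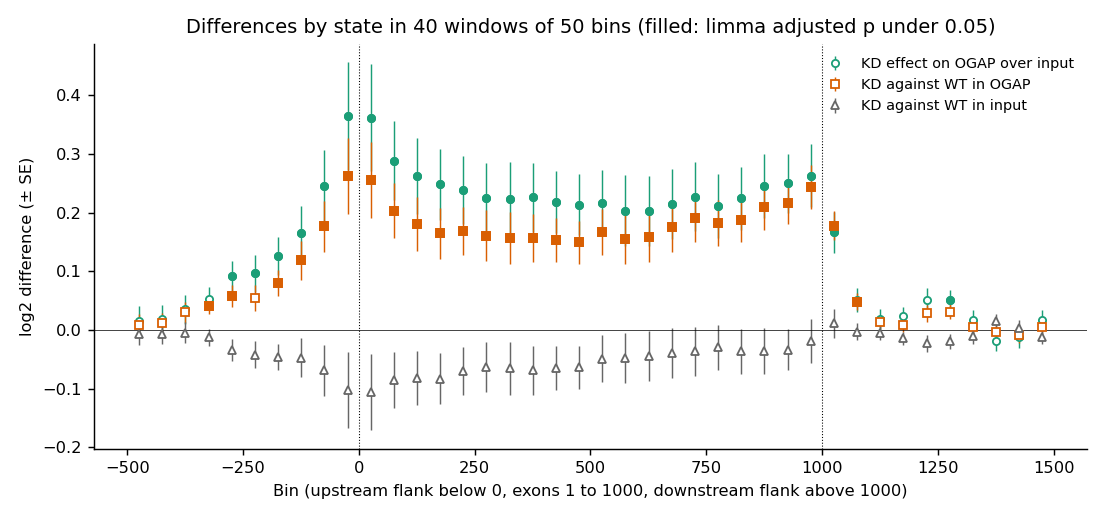
Log2 differences ± SE (y axis) in 40 windows of 50 bins (x axis) for the KD effect on OGAP over input (circles), KD against WT in OGAP (squares) and KD against WT in input (triangles); filled symbols have a limma adjusted p under 0.05. The first 2 comparisons have 28 filled windows each, with their maxima beside the start boundary, and the third has none.

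The difference of these differences is the KD effect on OGAP relative to input. Here too 28 of 40 windows passed, 70% of those tested, all higher, with 20 of 20 over the exons, 6 upstream and 2 downstream, which were bins 1 to 50 and 251 to 300 (limma). The log2 difference was 0.36 ± 0.09 in the last upstream window (adjusted p = 0.02, limma), 0.36 ± 0.09 in the first exon window, 0.21 ± 0.05 in exon bins 451 to 500 and 0.26 ± 0.05 in the last exon window. For the exon level the difference was 0.158, and for the end step 0.0581 (exact permutation p = 0.0556 each, adjusted p = 0.111, the smallest p this test allows). For the gradient it was -0.0642 (exact permutation p = 0.17), or -0.0346 without WT input replicate 2, and for the start step 0.0009 (p = 0.94). The window count was 0 without either WT OGAP replicate, without either KD input replicate or without WT input replicate 2.

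OGAP over input was tested in the same fit for each state. In KD 32 of 40 windows passed (80%), 31 lower (77.5%) and 1 higher (2.5%), with all 20 exon windows lower and a range of -0.31 to -0.16 among them (limma, log2). In WT 32 windows passed (80%), all lower, and the exon windows ranged from -0.67 to -0.37. In both states the 10 upstream windows were lower, at -0.33 in KD and -0.69 in WT in the window with the largest difference. The KD count was 0 without KD input replicate 1, and the WT count was 31 or 32 without any 1 library.

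The exons were set against the positions downstream of gene starts and upstream of gene ends, which are not limited to exons, over the same outer level. The first stretch was the last 500 of the 6000 positions around gene starts, those farthest downstream of the start. Coverage there was 0.987 and 0.984 in KD OGAP and 0.966 and 0.969 in WT OGAP. In input it was 0.991 and 1.0003 in KD and 0.999 and 1.008 in WT. The second stretch was the first 500 of the 6000 positions around gene ends, those farthest upstream of the end. Coverage there was 0.993 and 0.976 in KD OGAP and 0.948 and 0.945 in WT OGAP. In input it was 1.028 and 1.022 in KD and 1.031 and 1.06 in WT. In 7 of 8 libraries the middle exon bins lay farther from 1 than either stretch, the exception being KD OGAP replicate 1 at 1.007.

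The middle exon bins minus the stretch downstream of the start came to 0.0196 and -0.0409 in KD OGAP and -0.0894 and -0.0994 in WT OGAP, against 0.119 and 0.0813 in KD input and 0.114 and 0.158 in WT input. OGAP minus input was -0.171 in this contrast, and -0.124 against the stretch upstream of the end (exact permutation p = 0.0286 each, two-sided, 4 against 4 libraries; adjusted p = 0.0286 over the 2). The KD libraries lay above the WT libraries in OGAP, with differences of 0.0838 against the first stretch and 0.0642 against the second (exact permutation p = 0.33 each). Without KD OGAP replicate 1 they were 0.0535 and 0.041. This comparison was chosen after the profiles were seen.

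**Figure D5:**
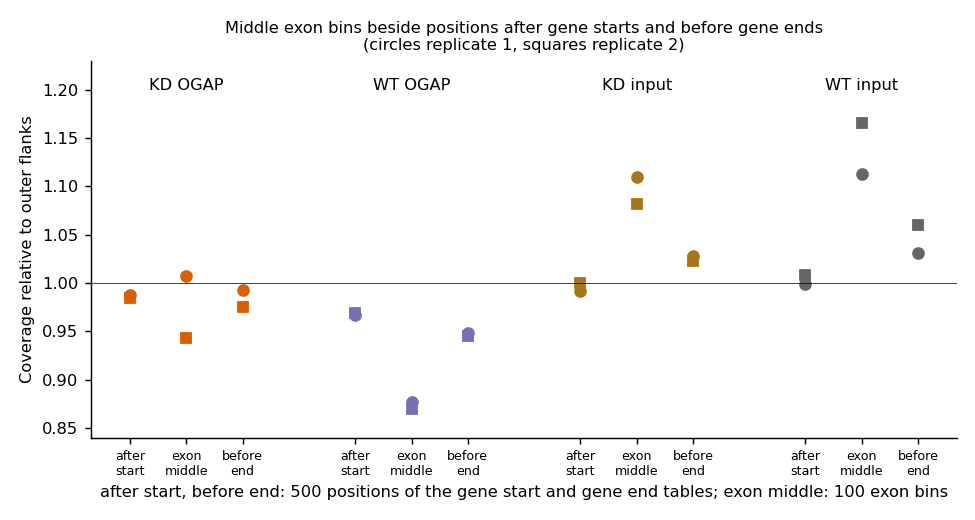
Coverage relative to the outer flanks (y axis) in 2 stretches and the middle 100 exon bins (x axis), for each library of the 4 groups. The stretches are the 500 positions farthest downstream of the gene start and the 500 farthest upstream of the gene end. Each was taken from 6000 positions around the start or the end, and neither lies next to the boundary. Circles are replicate 1 and squares replicate 2. In WT OGAP the exon bins, at 0.877 and 0.870, are below both stretches, and in the inputs they are above both.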

How the data were processed

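The authors deposited, for each library and bin, a whole number that sums the coverage signal of many genes, as far as the file headers and values show. Per the submitters' processing notes, reads were processed with BWA 0.7.17-r1188, bedtools, featureCounts and MACS2 on hg38; how the sums were made, over which genes and with what scaling is not given in the sources used here. Sums follow library depth, so levels were compared only relative to the outer flanks of the same library, and a change common to exons and outer flanks cannot be seen. Counts of reads are unknown, so no counting interval is given. Libraries were matched by state and replicate as named in the tables, and 0 columns of per-sample values were left out. The promoter window table was not used.

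The measures were the exon level, the gradient and both boundary steps. They were compared by exact two-sided permutation over libraries in 4 comparisons, with Benjamini-Hochberg adjustment over the 4 measures of each. For the difference of differences, state labels were permuted within OGAP and within input. Windows of 50 bins were fitted as log2 relative levels with limma 3.58.1 in R 4.3.3 (4 group means, 4 residual and 1.66 prior degrees of freedom, adjusted over 40 windows), after a check on simulated windows. That check drew windows independently, with the same spread for all groups in a window. It does not cover noise shared by neighbours or groups of unequal spread. Windows are neighbours over the same genes, so their calls are not independent. Python 3.11.15 was used otherwise. No gene is named, since each bin sums over genes; the named bins are the first, middle and last 100 exon bins, 50 bins on each side of a boundary, and extremes of a 21-bin running mean. The members and measures were chosen with earlier results of these data known.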

Additional observations from a re-analysis of the deposited data

Results flagged for a closer look

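KD and WT differed in opposite directions in OGAP and in input for the exon level and the end step. The exon level was higher in KD in OGAP and lower in KD in input in every library, and the difference between the 2 effects was 0.158. For the end step the difference between the 2 effects was 0.0581. Both differences were tested (exact permutation p = 0.0556 each, the smallest possible; adjusted p = 0.111 over 4 measures), and neither passed. The same difference passed in 28 of the 40 windows (limma, adjusted p under 0.05). That count was 0 without either WT OGAP replicate, without either KD input replicate or without WT input replicate 2.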

How the results depend on the processing

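Under the alternatives that keep all libraries, 131 of 148 recomputed differences kept their direction and their side of the threshold, and 48 of 57 recomputed counts of windows or bins stayed within 1.5 times those reported. Differences of 2 against 2 libraries, and those of the KD effect on OGAP minus input, could not pass under any of them. Permuting assay labels only within KD and WT, and the replicate block, both gave the OGAP against input differences of -0.2123 (exon level), 0.0966 (gradient), 0.0171 (start step) and -0.0641 (end step) an exact p of 0.0556, the smallest those schemes allow. The start step of OGAP against input was 0.0024 with 20 bins on each side and -0.000979 with 100 bins.

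None of the other values that changed sign had passed a test. The gradient of KD against WT in OGAP was 0.000441 on the log2 scale, 0.0043 with end segments of 200 bins and 0.0072 as a least squares slope. The start step was 0.0069 for KD against WT in OGAP with 100 bins, 0.0079 for KD against WT in input with medians over bins, and, for the KD effect on OGAP minus input, -0.0155 with medians and -0.0027 on the log2 scale. The cause was not tested. Leaving the first and last 100 exon bins out of the exon level, a setting chosen after seeing the data, gave -0.2015 for OGAP against input and 0.1076 for KD against WT in OGAP.

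Windows of 20 bins gave 77, 79, 67 and 70 calls of 100 for OGAP over input in KD, the same in WT, KD against WT in OGAP and the KD effect on OGAP over input, and windows of 100 bins gave 17, 16, 14 and 15 of 20; these counts differ because the number of windows does. Bins in which both KD inputs lay below both WT inputs numbered 850 when profiles were divided by all flank bins.

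Leaving out 1 library in turn, OGAP against input ranged from -0.2433 to -0.1922 for the exon level, 0.0768 to 0.1105 for the gradient, 0.0153 to 0.0188 for the start step and -0.0755 to -0.0571 for the end step. Where such a difference no longer passed, the exact p was 0.0571. KD against WT in OGAP ranged from -0.0174 to 0.0081 for the gradient and -0.0056 to 0.002 for the start step. The start step ranged from -0.0067 to 0.0012 in input and from -0.0031 to 0.0049 for the KD effect on OGAP minus input. Window calls ranged from 0 to 31 for OGAP over input in KD, 0 to 28 for KD against WT in OGAP and 0 to 28 for the KD effect on OGAP over input. Bins with KD input below WT input ranged from 1511 to 2053. The middle exon bins minus the stretch downstream of the start ranged from -0.1946 to -0.1549 for OGAP against input. Minus the stretch upstream of the end, they ranged from -0.1423 to -0.1123. A fit without a library has fewer degrees of freedom, and a lone library is assumed to vary like the other groups.

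Same-numbered libraries did not deviate together in all groups. Over windows, the correlation of deviations was 0.722 between KD OGAP and KD input. It was 0.466 between KD OGAP and WT OGAP and 0.476 between WT OGAP and KD input. It was negative with WT input, at -0.865 for KD input, -0.848 for KD OGAP and -0.580 for WT OGAP. Each group gives only 1 difference between replicates over neighbouring windows, so these values cannot decide whether the numbers pair the libraries. The replicate block left the window counts within 1.5 times those reported. With 2 libraries a group, the spread between libraries limits what can be called. The scatter between neighbouring bins does not measure noise that they share.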
